A study of Mus musculus with 7 samples.

Results

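The genes described here are the integrins, the receptors that join cells to matrix and to other cells, together with the core proteins of the focal adhesions into which they assemble. They are the 34 genes of a fixed list whose names match the gene table exactly, out of 55401 genes, and all 34 were found. The RNA-Seq samples were taken from the knees of male C57BL/6J mice operated at 10 weeks of age, and all had undergone DMM, in which the medial meniscus is surgically destabilized to induce OA, 2 weeks before. By their labels, 4 samples were WT and 3 were *Trpc1-/-*, whereas the study's Methods give 3 and 4, and the labels were used. Each sample pooled the cartilage of 2 to 3 mice, and the Methods add subchondral bone to the tissue. The *Trpc1-/-* mice lack an exon in the transmembrane region of the calcium channel TRPC1 in all tissues, the WT mice came from the same colony, and neither group has an unoperated sample in these data.

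Integrins are made of an alpha and a beta chain, and the alpha chain largely sets which ligand is bound. The collagen receptors are built from *Itga1*, *Itga2*, *Itga10*, or *Itga11* with *Itgb1*, and the receptor with *Itga10* is the one best known from chondrocytes. Receptors that contain *Itgb2* are restricted to leukocytes, where they bind adhesion molecules of the vessel wall and complement-coated targets. On the inside of the cell, talins and kindlins bind the beta chain and activate the receptor, and vinculin, paxillin, parvin, integrin-linked kinase, and focal adhesion kinase join it to actin and to signaling.

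Total counts ranged from 52142451 to 118254070 per sample, and a level of 3 counts corresponded to between 0.0244 and 0.0632 CPM, the count of a gene relative to the library size as scaled by edgeR's TMM method. *Trpc1* (ENSMUSG00000032839), the targeted gene, was at 4.83, 4.55, 4.77, and 4.33 CPM in WT replicates 1 to 4 and at 3.35, 3.79, and 3.04 CPM in *Trpc1-/-* replicates 1 to 3. Its 3 *Trpc1-/-* values lay below the 4 WT values, and the counts do not separate the deleted exon. The chondrocyte markers *Acan* and *Col2a1* were detected in every sample, so the labelled tissue was present, and markers of marrow cells were abundant beside them, with 10 erythroid markers summing to between 18713 and 56757 CPM and 10 neutrophil markers to between 5469 and 17289 CPM. Fewer cells of a type and less RNA per cell cannot be told apart in such samples. WT replicate 1, the shallowest sample, held the fewest counts of both marrow lists and the most of 7 skeletal muscle markers (1332 CPM, against 65.6 to 253 CPM in the other WT samples and 377 to 1070.3 CPM in *Trpc1-/-* samples).

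Of the 34 genes, 32 passed the filter on low counts (more than 1 CPM in at least 2 samples). *Itgb6*, the beta chain of an epithelial receptor, had between 0 and 74 counts, and *Itgae*, the alpha chain that holds lymphocytes in epithelia, had between 27 and 62 counts, and neither was tested. To compare genes, CPM were divided by exon length. Averaged over the 7 samples, *Itgb2* (83.7 ± 16.3 CPM per kb, SD), *Tln1* (79.9 ± 6.69), *Itgb1* (72.7 ± 5.21), *Itgam* (55.4 ± 8.35), and *Itgb3* (42.3 ± 4.32) had the highest levels of the 34. In this order the ranges of 31 of the 33 neighboring pairs overlapped. The other 2 pairs set apart *Itga7*, *Itga8*, *Itgb8*, *Itgb4*, and *Itga3*, all with a mean under 1 CPM per kb, from the genes above them, and *Itgae* and *Itgb6* from these. Among the alpha chains the leukocyte genes *Itgam* (55.4) and *Itga4* (18.7 ± 2.02) had the highest means, followed by *Itga6* (12.8 ± 1.01), *Itgav* (10.6 ± 1.26), *Itgal* (9.10 ± 0.931), and *Itga10* (8.59 ± 2.81). The ranges of *Itgal* and *Itga10* overlapped. The 5 leukocyte alpha chains made up 49.98% of the summed level per kb of the 16 alpha chains in WT replicate 1, while the other 6 samples ranged from 57.6% to 64.3%.

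**Figure D1:**
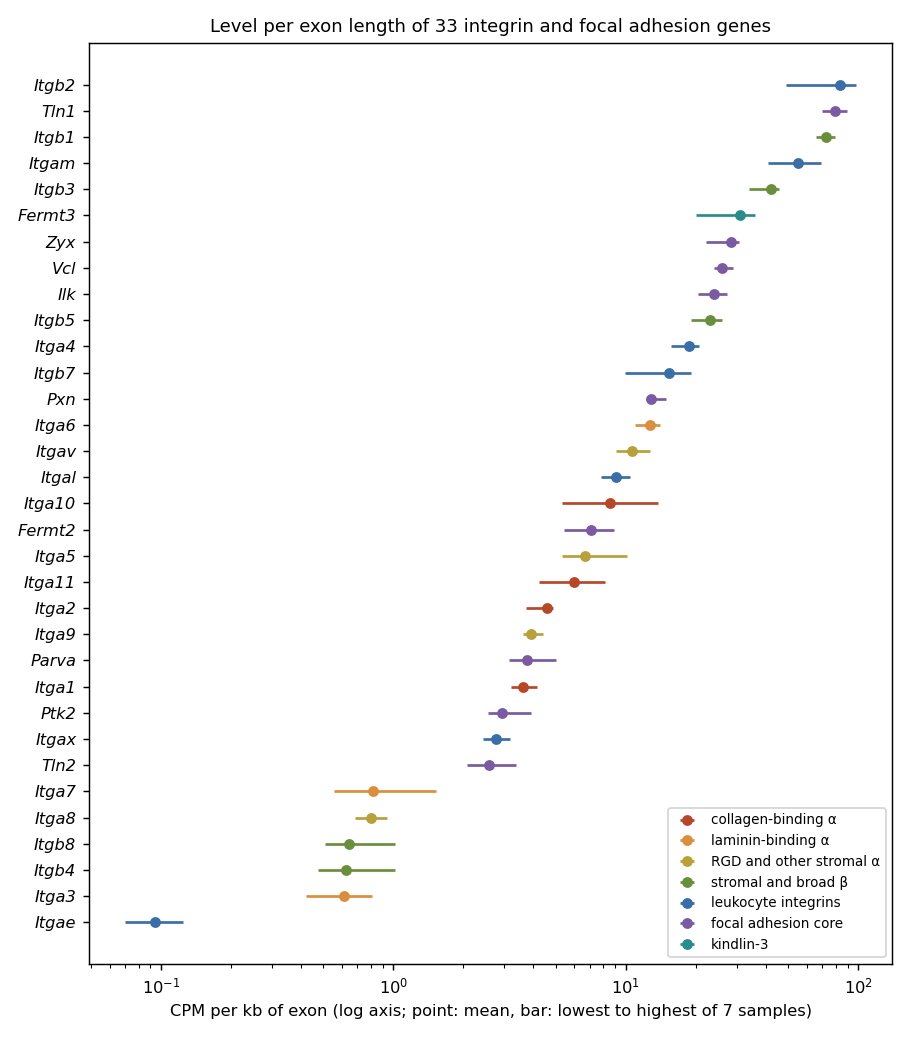
Level of each gene in CPM per kb of exon on a log axis, with points for the mean over the 7 samples, bars from the lowest to the highest sample, and colors for the role. *Itgb2*, *Tln1*, and *Itgb1* have the highest means, and *Itga10* (8.59) is the highest of the 4 collagen-binding chains. *Itgb6*, which is at 0 in WT replicate 4, is not drawn.

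Most stromal integrins had lower means in *Trpc1-/-* samples, whereas the leukocyte integrins were mixed in direction and the sign of their median turned without WT replicate 1. Of the 16 tested stromal and broadly expressed integrins, 15 had a lower mean in *Trpc1-/-* samples by the sign of the log2 fold change (logFC), with a median of −0.20, and without WT replicate 1 the count was 14 and the median −0.13. Without *Trpc1-/-* replicate 3 the count was 11, as *Itga2*, *Itga6*, *Itgb1*, and *Itgb3* turned sign. Of the 6 tested leukocyte integrins, 2 had a lower mean, with a median of 0.081, against 3 and −0.034 without WT replicate 1. Within the 1300s of the numbers in the sample headers, read here as mouse numbers, they were 0 and 0.16 (WT replicates 3 and 4 left out). With each sample left out in turn, *Itga4*, *Itgal*, and *Itgax* kept a higher mean (lowest logFC 0.088, 0.038, and 0.039). *Itgb7* kept a lower mean in these fits, and *Itgam* and *Itgb2* turned sign. Over all tested genes, 51.9% had a lower mean, with a median of −0.0088. The stromal median was −0.18, −0.14, and −0.29 in *Trpc1-/-* replicates 1 to 3 when each was set against the WT mean, and the leukocyte median was 0.077, 0.052, and 0.12. No test of the difference between these lists was made. No gene of the 34 passed edgeR's quasi-likelihood test at an adjusted *P* of 0.05, as held for 0% of the 16429 tested genes. An unadjusted *P* under 0.05 was found for 3, *Itga10*, *Itga3*, and *Itga1*, against 10.0% of all tested genes, of which 5.49% had a lower and 4.51% a higher mean, so the share was near that of all genes. DESeq2 called 1, *Itga10*, where it called 1.79% of all tested genes, and 0.828% with a lower mean.

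**Figure D2:**
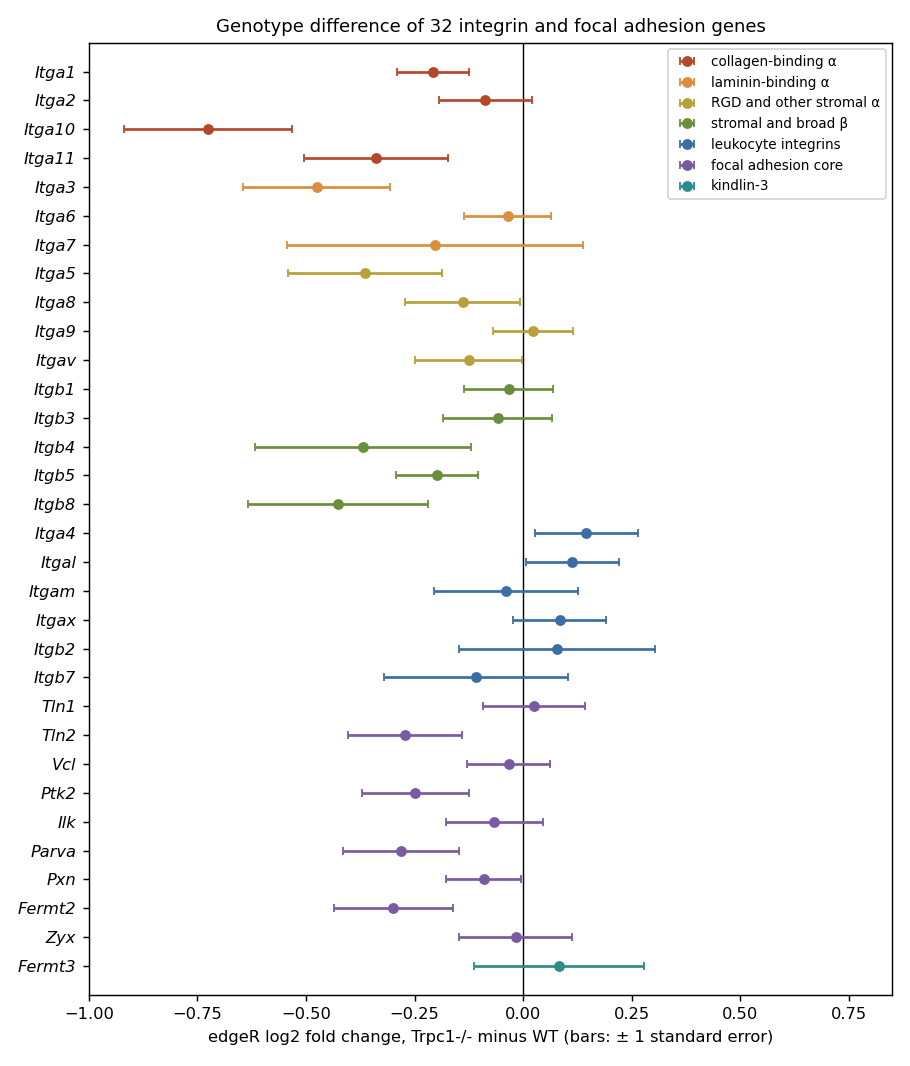
The log2 fold change of each of the 32 tested genes from edgeR, *Trpc1-/-* minus WT, with bars of ± 1 standard error and colors for the role. *Itga10* lies farthest to the left (−0.73), 15 of the 16 stromal integrins lie left of 0, and the leukocyte integrins lie between −0.11 and 0.15.

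The largest difference among the 32 tested genes was that of *Itga10* (ENSMUSG00000090210), on chromosome 3 of GRCm38 from 96645584 to 96664519. It was at 71.0, 50.5, 46.4, and 46.7 CPM in WT replicates 1 to 4 and at 29.6, 40.1, and 27.6 CPM in *Trpc1-/-* replicates 1 to 3. All 3 *Trpc1-/-* values lay below all 4 WT values, with WT replicate 1 far above the other WT samples and *Trpc1-/-* replicate 2 nearest to the WT range. The mean was 53.7 ± 11.7 CPM for WT (SD, n = 4) and 32.4 ± 6.73 CPM for *Trpc1-/-* (SD, n = 3), and the logFC was −0.73 (SE 0.19; unadjusted *P* = 0.00598 and adjusted *P* = 0.395 in edgeR; adjusted *P* = 0.0328 in DESeq2). Without WT replicate 1 the logFC was −0.56 (adjusted *P* = 0.140 in edgeR), and within the mouse numbers of the 1300s, which hold WT replicates 1 and 2 and all *Trpc1-/-* samples, it was −0.91 (SE 0.21, adjusted *P* = 0.378 in edgeR). When single samples were omitted, DESeq2 called *Itga10* in 4 of 7 fits and lost the call without WT replicate 2 (adjusted *P* = 0.142), *Trpc1-/-* replicate 1 (0.346), or *Trpc1-/-* replicate 3 (0.489). The predicted gene Gm42957 starts upstream of *Itga10* and runs into it on the same strand, so reads could have been assigned to either. It held at most 12.1% of the count of *Itga10*, and the sum of both genes was 59.5 ± 13.2 CPM for WT (SD, n = 4) and 35.9 ± 7.03 CPM for *Trpc1-/-* (SD, n = 3), without overlap.

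*Col2a1*, the collagen of cartilage and a ligand of the receptor with *Itga10*, also had its highest *Trpc1-/-* value in replicate 2, where it reached 3266 CPM, against 1453 and 1695 CPM in *Trpc1-/-* replicates 1 and 3 and between 2697 and 3300 CPM in WT. The ratio of *Itga10* to *Col2a1* CPM lay between 0.0157 and 0.0215 in WT and was 0.0204, 0.0123, and 0.0163 in *Trpc1-/-* replicates 1 to 3, and thus overlapped. It was lowest in *Trpc1-/-* replicate 2, where *Col2a1* lay within the WT range and *Itga10* below it. All 10 chondrocyte markers had a lower mean in *Trpc1-/-* samples (median logFC −0.42), none at 0. Their summed level was 5514 to 5792 CPM in WT and 3121, 5917, and 3348 CPM in *Trpc1-/-* replicates 1 to 3. The part of the chondrocyte markers in the result for *Itga10* was not tested.

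The bases upstream of *Itga10*, which had the largest difference, and of the leukocyte gene *Itgam*, which had one near 0, are shown to set both control regions side by side. The sequences were taken from RefSeq on GRCm38.p6, where 23 of the 34 genes matched, and cover 250 bases before the annotated start on the plus strand, chr3:96645334-96645583 and chr7:128062390-128062639. Capitals mark GAGGAA, a core bound by the leukocyte factor PU.1, and ACAAAG and ACAATG, cores bound by SOX factors, each searched on both strands.
Itga10: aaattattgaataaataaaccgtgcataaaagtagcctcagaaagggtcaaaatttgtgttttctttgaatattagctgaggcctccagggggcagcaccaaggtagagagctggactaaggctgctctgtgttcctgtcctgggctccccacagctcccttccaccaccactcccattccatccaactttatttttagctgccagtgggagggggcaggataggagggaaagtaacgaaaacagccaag
Itgam: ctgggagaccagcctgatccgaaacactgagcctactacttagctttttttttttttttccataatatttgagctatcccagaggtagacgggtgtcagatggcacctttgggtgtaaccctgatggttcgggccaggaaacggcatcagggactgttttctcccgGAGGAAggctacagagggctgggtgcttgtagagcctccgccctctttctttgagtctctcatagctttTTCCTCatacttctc
GAGGAA was found in 23.3% of all 32851 promoters of this length and in those of 8 of the 23 matched genes (*Itga11*, *Itga3*, *Itga5*, *Itgam*, *Itgav*, *Itgb1*, *Itgb6*, and *Tln1*), of which *Itgam* alone is a leukocyte integrin. ACAAAG was in 16.5% of all promoters and in 3 of the 23 (*Fermt3*, *Itga3*, and *Itgb1*), and ACAATG was in 10.7% and in 1 (*Itga8*). None of the 3 motifs occurs in the window of *Itga10*, which says only that these letters are not there.

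The other collagen-binding chains had smaller differences. *Itga1*, a receptor for collagens of basement membranes, was at 63.6, 73.3, 71.8, and 76.8 CPM in WT replicates 1 to 4 and at 61.1, 64.6, and 59.8 CPM in *Trpc1-/-* replicates 1 to 3. The groups overlapped only through WT replicate 1, with a logFC of −0.21 (SE 0.083, unadjusted *P* = 0.0388 and adjusted *P* = 0.481 in edgeR) and, without that sample, of −0.26 (adjusted *P* = 0.122 in edgeR). DESeq2 called *Itga1* without that sample (adjusted *P* = 0.00526), in a fit that called 890 of the 16429 tested genes. The gene *Pelo* overlaps *Itga1* on the same strand and held at most 15.9% of its count, so reads could have been assigned to either. *Itga11*, which binds fibrillar collagen on fibroblasts and osteoblasts, was at 41.7, 34.2, 32.04, and 27.1 CPM in WT and at 27.9, 30.3, and 21.7 CPM in *Trpc1-/-* samples, so that the groups overlapped (logFC −0.34, SE 0.17, adjusted *P* = 0.527 in edgeR; −0.22 without WT replicate 1). *Itga2*, the collagen receptor also found on platelets, differed by less than its standard error (logFC −0.087, SE 0.11). Among these 4 chains, *Itga10* made up 46.4%, 38.6%, 37.4%, and 38.7% of the summed level per kb in WT replicates 1 to 4 and 29.6%, 35.4%, and 32.3% in *Trpc1-/-* replicates 1 to 3. The sum of the other 3 chains was 15.8, 15.5, 15.0, and 14.3 CPM per kb in WT and 13.6, 14.1, and 11.2 CPM per kb in *Trpc1-/-* samples. These sums were only just apart (14.3 against 14.1), and each of the 3 chains alone overlapped between the groups. For *Itgb1*, the beta chain that all 4 collagen receptors share, the mean was 73.4 ± 6.05 CPM per kb for WT (SD, n = 4) and 71.7 ± 4.92 CPM per kb for *Trpc1-/-* (SD, n = 3), and the logFC was −0.034 (SE 0.10).

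**Figure D3:**
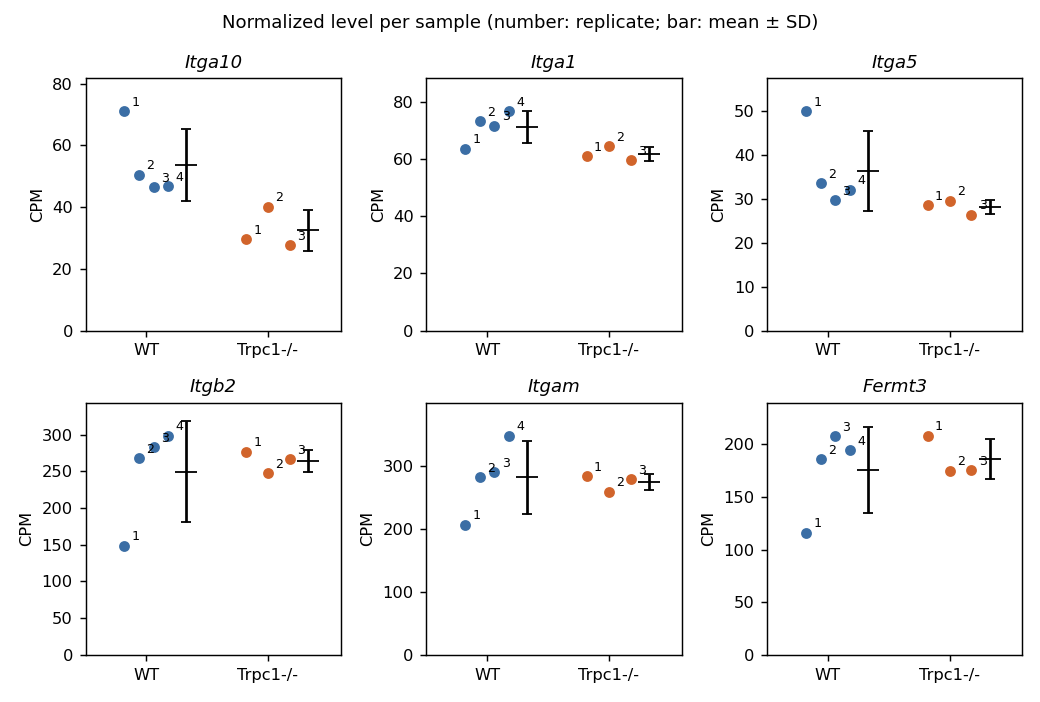
CPM per sample of 3 stromal integrin genes (upper row) and of 3 leukocyte genes (lower row), with WT in blue, *Trpc1-/-* in orange, the replicate number beside each point, and black bars for mean ± SD. *Itga10* shows no overlap between the groups, and WT replicate 1 is the lowest of the 7 samples for *Itgb2* (149 CPM), *Itgam* (206 CPM), and *Fermt3* (116 CPM).

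The laminin-binding chains had logFC values between −0.48 and −0.036, and no test between them was made. *Itga3*, a laminin receptor of epithelia, was low, at 4.62, 4.02, 3.87, and 3.35 CPM in WT replicates 1 to 4 and at 2.40, 3.25, and 2.89 CPM in *Trpc1-/-* replicates 1 to 3, with no overlap and a logFC of −0.48 (SE 0.17, unadjusted *P* = 0.0234 and adjusted *P* = 0.453 in edgeR). *Itga6*, the chain with the highest level of the 3 and one found on platelets and vessels, was at 116 ± 5.45 CPM for WT (SD, n = 4) and at 114 ± 14.0 CPM for *Trpc1-/-* (SD, n = 3). *Itga7*, the laminin receptor of skeletal muscle fibers, was at 12.4 CPM in WT replicate 1 and between 4.48 and 6.26 CPM in the other 6 samples. Muscle markers summed to 1332 CPM in WT replicate 1 and to 1070.3 CPM in *Trpc1-/-* replicate 3, where *Itga7* was at 6.26 CPM. Its logFC of −0.20 (SE 0.34) turned to 0.21 without WT replicate 1.

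Among the receptors for fibronectin and related ligands, *Itga5*, the main fibronectin receptor, was at 49.9, 33.6, 29.7, and 32.02 CPM in WT replicates 1 to 4 and at 28.6, 29.5, and 26.3 CPM in *Trpc1-/-* replicates 1 to 3. The gap between the groups was small, and WT replicate 1 stood above all other samples. The logFC was −0.36 (SE 0.18, adjusted *P* = 0.525 in edgeR) and −0.18 without WT replicate 1. *Itgav*, the chain shared by the vitronectin receptors, overlapped between the groups (119 ± 13.7 CPM for WT, SD, n = 4; 109 ± 13.6 CPM for *Trpc1-/-*, SD, n = 3). Its logFC was −0.13, and −0.052 without WT replicate 1. *Itga8* had a logFC of −0.14 (SE 0.13), and *Itga9*, which binds tenascin, had one of 0.023 (SE 0.092), the only stromal chain with a higher mean. Of the beta chains that pair with *Itgav*, *Itgb5* was at 78.2, 91.1, 92.5, and 83.0 CPM in WT and at 79.4, 77.9, and 68.1 CPM in *Trpc1-/-* samples (logFC −0.20, SE 0.094, adjusted *P* = 0.518 in edgeR). *Itgb8*, whose receptor activates latent TGF-beta, was at 11.2, 8.03, 6.67, and 6.25 CPM and at 5.68, 6.57, and 5.63 CPM (logFC −0.43, SE 0.21, adjusted *P* = 0.526 in edgeR). Both overlapped between the groups, and without WT replicate 1 the logFC of *Itgb8* was −0.23. *Itgb3*, the beta chain of osteoclasts and platelets, had a logFC of −0.059 (SE 0.13), and *Itgb4*, the laminin-binding chain of epithelia, had one of −0.37 (SE 0.25), which was −0.13 without WT replicate 1.

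The lower stromal means came with lower means of other stromal markers. Of 7 fibroblast markers, 7 had a lower mean (median logFC −0.28; summed level 2273 to 3210 CPM in WT and 1977 to 2456 CPM in *Trpc1-/-* samples), as had 10 of 10 osteoblast and osteocyte markers (median −0.31; 1185 to 1995 CPM and 1162 to 1674 CPM) and 6 of 7 endothelial markers (median −0.098; 346 to 373 CPM and 311 to 356 CPM). All 10 erythroid markers had a higher mean (median 0.58; 18713 to 35804 CPM in WT and 41368 to 56757 CPM in *Trpc1-/-* samples). None of these markers was at 0 in all samples. *Trpc1-/-* replicate 3, with the lowest sums of the fibroblast, osteoblast, and endothelial markers and the highest of the erythroid markers among the 7 samples, was also the lowest sample for 10 of the 16 stromal integrins, as it was for 12.7% of all tested genes. Without it, 11 of the 16 had a lower mean. Of the 16, *Itga2*, *Itga6*, and *Itgb3* are also found on platelets, and *Itgb3* on osteoclasts. Of 7 megakaryocyte and platelet markers, 6 had a higher mean (median 0.044), as had 3 of 6 osteoclast markers (median −0.068). Both sums were the lowest among *Trpc1-/-* samples in replicate 3 (470 and 430 CPM) and lower still in WT replicate 1 (280 and 354 CPM). The part of these markers in the integrin differences was not tested.

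Of the leukocyte integrins, *Itgb2*, the beta chain of the leukocyte receptors, was at 149, 268, 283, and 299 CPM in WT replicates 1 to 4 and at 277, 247, and 266 CPM in *Trpc1-/-* replicates 1 to 3. *Itgam*, the complement receptor chain of neutrophils and macrophages, was at 206, 282, 290.0, and 348 CPM in WT and at 283, 259, and 279 CPM in *Trpc1-/-* samples. For both genes the *Trpc1-/-* values lay within the WT range, and WT replicate 1 was the lowest sample. Their logFC values were 0.078 (SE 0.23) and −0.040 (SE 0.17), with adjusted *P* values of 0.911 and 0.937 in edgeR, and without WT replicate 1 they were −0.11 and −0.17. *Itgb7*, which pairs with *Itga4* on gut-homing lymphocytes, followed the same order in WT (27.4, 44.8, 49.3, and 53.1 CPM) and was at 45.6, 36.8, and 39.2 CPM in *Trpc1-/-* samples. *Itga4*, which binds VCAM1 and fibronectin on leukocytes and their precursors, did not share the low value of WT replicate 1. It was at 270.2, 224, 219.6, and 287 CPM in WT and at 288, 274, and 268 CPM in *Trpc1-/-* samples (logFC 0.15, SE 0.12, adjusted *P* = 0.663 in edgeR). *Itgal*, the partner of *Itgb2* on lymphocytes, and *Itgax*, that of dendritic cells, had logFC values of 0.11 (SE 0.11) and 0.084 (SE 0.11).

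Summed over 10 genes, neutrophil markers were lowest in WT replicate 1 (5469 CPM), between 13680 and 17289 CPM in the other WT samples, and between 12766 and 16773 CPM in *Trpc1-/-* samples. All 10 had a higher mean in *Trpc1-/-* samples (median logFC 0.099), and the median was −0.13 without WT replicate 1. B cell markers (7 of 7 higher, median 0.36), T cell markers (6 of 6, median 0.33), and macrophage markers (7 of 8, median 0.23) also had higher means, none of them at 0, and without WT replicate 1 their medians were 0.18, 0.15, and 0.084. The T cell markers were low, with sums of 9.65 to 19.7 CPM in WT and 20.2 to 20.9 CPM in *Trpc1-/-* samples. Of these, *Cd4* was at 6.05 to 11.7 CPM, and every other T cell marker at no more than 3.04 CPM. The part of these markers was not tested.

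**Figure D4:**
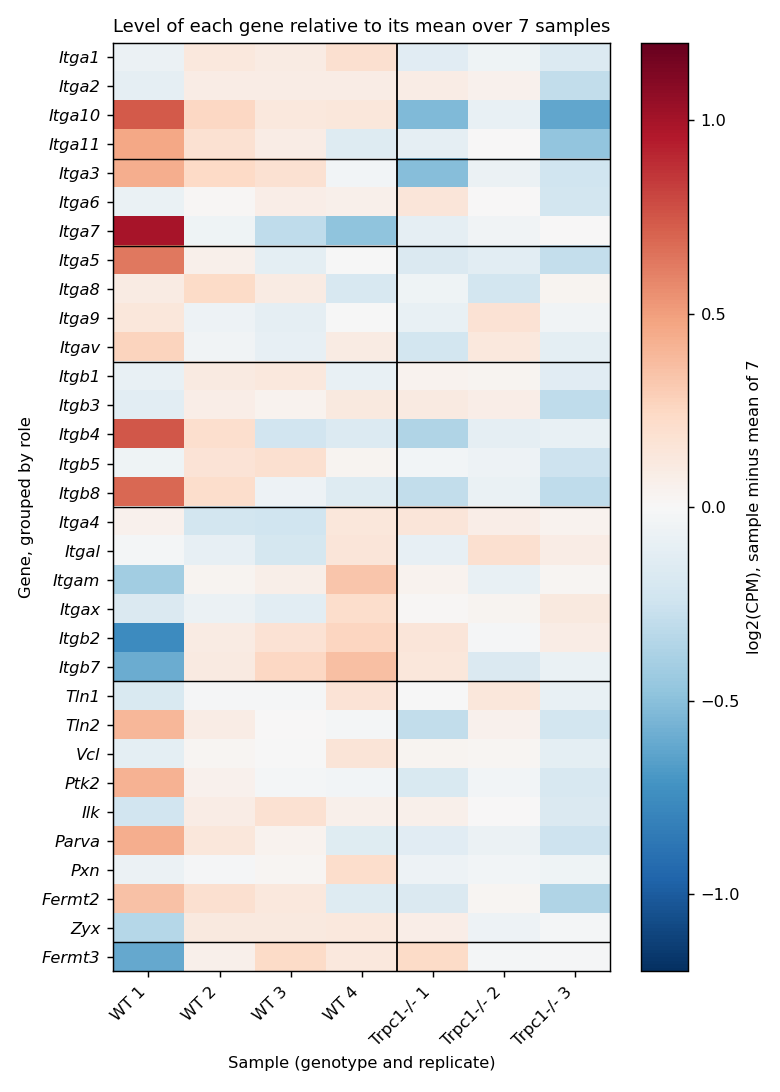
Level of the 32 tested genes in each sample as log2(CPM) minus the mean of the gene over the 7 samples, with red for higher and blue for lower values and black lines between roles and genotypes. WT replicate 1 is the highest sample for 8 of the 16 stromal integrins and the lowest for 4 of the 6 leukocyte integrins, and *Trpc1-/-* replicate 3 is the lowest for 10 of the 16 stromal integrins. Over all tested genes, WT replicate 1 is the highest sample for 37.2% and the lowest for 38.0%, and *Trpc1-/-* replicate 3 is the lowest for 12.7%.

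Of the 9 genes of the focal adhesion core, 8 had lower *Trpc1-/-* means (median logFC −0.091). *Fermt2* (kindlin-2, the kindlin of stromal cells), *Parva*, *Tln2*, and *Ptk2* (focal adhesion kinase) had logFC values of −0.30, −0.28, −0.27, and −0.25, with SE values from 0.12 to 0.14 and adjusted *P* values from 0.509 to 0.528 in edgeR. Without WT replicate 1 they were −0.22, −0.17, −0.17, and −0.13. *Tln1*, *Vcl* (vinculin), *Zyx*, *Ilk*, and *Pxn* (paxillin) lay between −0.091 and 0.025, and without that sample between −0.15 and −0.030, so that these values met those of *Ptk2*. *Fermt2* was at 46.1, 41.3, 39.6, and 32.4 CPM in WT replicates 1 to 4 and at 32.2, 36.8, and 28.2 CPM in *Trpc1-/-* replicates 1 to 3, with an overlap through WT replicate 4 alone. *Ptk2* was at 46.0, 35.5, 33.7, and 33.7 CPM in WT and at 30.3, 33.6, and 30.1 CPM in *Trpc1-/-* samples, without overlap but with *Trpc1-/-* replicate 2 next to the lowest WT values. With *Itga10*, *Itga3*, and *Itga5*, it was one of 4 of the 32 tested genes whose *Trpc1-/-* values all lay below the WT values, against 6.42% of all tested genes. The reverse order was found for 0 of the 32, against 7.15% of all tested genes.

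Kindlins and talins have paralogs that differ in where they are expressed. *Fermt3*, the kindlin of blood cells, was at 116, 186, 208, and 194 CPM in WT replicates 1 to 4 and at 208, 175, and 175 CPM in *Trpc1-/-* replicates 1 to 3 (logFC 0.083, SE 0.20, adjusted *P* = 0.889 in edgeR). WT replicate 1 was again the lowest. Per kb, the ratio of *Fermt3* to *Fermt2* was 2.25, 4.03, 4.70, and 5.37 in WT and 5.81, 4.27, and 5.58 in *Trpc1-/-* samples, and the groups overlapped. The ratio of *Tln1*, the widespread talin, to *Tln2* was 20.9, 29.1, 30.9, and 35.7 in WT and 38.2, 33.2, and 34.2 in *Trpc1-/-* samples, again with overlap.

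The numbers in the sample headers, read here as mouse numbers, lie in the 1300s or the 1700s. The latter comprise WT replicates 3 and 4 alone. The headers do not say what the numbers stand for, and each sample pooled 2 to 3 mice. Within the 1300s, 10 of the 32 genes had an unadjusted *P* under 0.05 in edgeR, against 13.2% of all tested genes, all lower in *Trpc1-/-* samples. These were *Itga10*, *Itga11*, *Itga3*, *Itga5*, *Itgb4*, *Itgb8*, *Tln2*, *Ptk2*, *Parva*, and *Fermt2*, each with an adjusted *P* of 0.378 in edgeR. WT replicate 1 is one of the 2 WT samples of that comparison, and it was the highest of the 7 samples for each of the 10, as it was for 37.2% of all tested genes. Without WT replicate 1, 6 of the 32 had an unadjusted *P* under 0.05, against 16.9% of all tested genes, all lower in *Trpc1-/-* samples. They were *Itga1*, *Itga10*, *Itga3*, *Itga5*, *Itgb5*, and *Itgb7*. In that fit edgeR called 0 of the 32, against 0.298% of all tested genes.

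The pathway beyond these genes was described with lists of ligands and partners. Of 13 tested matrix ligands of integrins, 12 had a lower mean in *Trpc1-/-* samples (median logFC −0.25), and edgeR called 0. *Col2a1* and *Ibsp* of this list are also among the chondrocyte and the osteoblast and osteocyte markers. An unadjusted *P* under 0.05 was found for 2 of the 13, against 10.0% of all tested genes. DESeq2 called 1 of the 13, *Npnt* (nephronectin, a ligand of the receptor with *Itga8*), where it called 1.79% of all tested genes, and 0.828% with a lower mean. *Npnt* was at 6.58, 4.92, 4.49, and 5.24 CPM in WT replicates 1 to 4 and at 3.16, 3.92, and 2.65 CPM in *Trpc1-/-* replicates 1 to 3 (logFC −0.71, SE 0.19; adjusted *P* = 0.395 in edgeR and 0.0423 in DESeq2). *Mfge8*, a ligand of the *Itgav* receptors, had a logFC of −0.48 (SE 0.15), and *Fn1*, fibronectin, one of −0.39 (SE 0.17), with adjusted *P* values of 0.409 and 0.499 in edgeR. Of 29 tested adhesion adaptors, 19 had a lower mean (median −0.025), and without WT replicate 1 the count was 23 and the median −0.084. An unadjusted *P* under 0.05 was found for 3 of the 29, a share near the 10.0% of all tested genes. These were *Kank2*, which binds talin (logFC −0.39, SE 0.11), *Bcar1*, a substrate of focal adhesion kinase (−0.56, SE 0.16), and *Lims2*, a partner of integrin-linked kinase (−0.52, SE 0.17), with adjusted *P* values between 0.406 and 0.430 in edgeR, and both tools called 0 of the 29. The groups of the latter 3 genes, which had the smallest *P* values of the list, did not overlap. All *Trpc1-/-* values lay below all WT values for 5 of the 29 adaptors, against 6.42% of all tested genes.

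The ligands of leukocyte integrins had no called gene in either tool, with 3 of 4 tested genes higher (median logFC 0.20), and 2 of 4 without WT replicate 1 (median 0.11). *Vcam1*, the ligand of *Itga4* on endothelium and on macrophages of the marrow, was at 168, 272, 293, and 273 CPM in WT replicates 1 to 4 and at 341, 298, and 363 CPM in *Trpc1-/-* replicates 1 to 3, without overlap (logFC 0.41, SE 0.19, unadjusted *P* = 0.0656 and adjusted *P* = 0.511 in edgeR). Its logFC was 0.26 without WT replicate 1. Of the integrin genes outside the 34, *Itgad*, a leukocyte alpha chain of macrophages, was at 18.5, 23.9, 23.8, and 17.5 CPM in WT and at 32.8, 26.1, and 29.3 CPM in *Trpc1-/-* samples, also without overlap (logFC 0.49, SE 0.14, unadjusted *P* = 0.00861 and adjusted *P* = 0.407 in edgeR; adjusted *P* = 0.0864 in DESeq2). *Itga2b*, the platelet alpha chain (logFC −0.10, SE 0.13), and *Itgb2l*, a neutrophil gene related to *Itgb2* (−0.0036, SE 0.21), differed by less than their standard errors. In each of these lists, 1 of the 4 tested genes had all *Trpc1-/-* values above all WT values, against 7.15% of all tested genes.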

How the data were processed

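RNA-Seq was performed on 7 samples, 4 WT and 3 *Trpc1-/-*. The authors trimmed reads with Cutadapt 2.5, aligned them to GRCm38 with HISAT2 2.1.0, and estimated coverage with StringTie 2.0.3. The authors deposited estimated counts per gene, already whole numbers and not normalized, in 1 table of 55401 genes, and 0 columns belonged to other samples.

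The filter (over 1 CPM, 2 or more samples) left 16429 genes. In R 4.3.3, edgeR 4.0.16 tested genotype alone by quasi-likelihood (TMM, common dispersion 0.0424) and DESeq2 1.42.0 served as an alternative, with Benjamini-Hochberg adjustment over all tested genes at 0.05. The other alternatives were another normalization, 2 other filters, the replicate number as a block, the mouse number range, and each sample left out. Standard errors were taken from the F statistic. The fits were first tested on simulated data. Floors of 3 counts cover counting error only. Exon lengths are unions over transcripts of GENCODE M21, where 11 of the 34 genes overlap another gene on the same strand.

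The 34 genes and all lists were chosen with earlier results of these data known. Named are all 34, *Trpc1*, from each list of partners at most 5 genes with the smallest unadjusted *P*, and markers of cell types. Genes outside this rule (Gm42957, *Pelo*, *Col2a1*, *Acan*) are named beside results that touch them.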

Additional observations from a re-analysis of the deposited data

Results flagged for a closer look

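In the 4 WT samples, 1 value stood apart from the other 3 for 4 of the 34 genes by Dixon's test at its 95% limit. Chance gives this in about 1 in 20 groups. All 4 values were those of WT replicate 1, so the 4 genes are not independent cases. That sample was high for *Itga10* (71.0 CPM, next 50.5 CPM) and *Ptk2* (46.0 CPM, next 35.5 CPM) and low for *Itga2* (30.4 CPM, next 34.6 CPM) and *Zyx* (119 CPM, next 164 CPM). Over all tested genes, it was the highest of the 7 samples for 37.2% and the lowest for 38.0%. The share of all tested genes flagged by Dixon's test was not computed.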

How the results depend on the processing

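Of 455 recomputed logFC values of the 32 tested genes, with the DESeq2 fits that leave out a sample included for *Itga10* alone, 411 kept their direction and side of the threshold, 5 of *Itga10* passed it (all in DESeq2), and 39 turned sign, in 14 genes with a logFC of at most 0.203 in size. EdgeR called 0 of the 34 genes in every fit run. DESeq2 called 294 genes in all and 1 of the 34. With each sample left out, edgeR called 0 to 49 genes in all (49 without WT replicate 1) and DESeq2, chosen after seeing the data, 37 (without *Trpc1-/-* replicate 3) to 890.0 (without WT replicate 1), namely 62, 134, and 283 without WT replicates 2 to 4 and 79 and 367 without *Trpc1-/-* replicates 1 and 2, with 0 to 2 of the 34, *Itga10* and, without WT replicate 1, *Itga1*. With the replicate number as a block, DESeq2 called 0 of the 34, and *Itga10* had a logFC of −0.78 and an adjusted *P* of 0.0796. The count of the 34 at an unadjusted *P* under 0.05 was 10 within the 1300s and with the mouse number range as a covariate. With each sample left out it was 1 to 6 in edgeR (1 without WT replicate 2 or *Trpc1-/-* replicate 1 or 3, and 6 without WT replicate 1 or 4) and 2 to 6 in DESeq2.

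The median of the stromal integrins lay between −0.23 and −0.13 under the alternatives. That of the leukocyte integrins was 0.18 with the replicate block and 0.16 in both fits with the mouse number range, with 0 of 6 lower in these 3 fits, and between −0.034 and 0.18 with each sample left out. That of the focal adhesion core was −0.0086 in both fits with the mouse number range.

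Signs turned with the replicate block for *Itgam* (0.093), *Itgb7* (0.034), *Vcl* (0.016), and *Zyx* (0.035), without a filter for *Zyx* (0.0066), and, within the 1300s and with the range as a covariate alike, for *Itga6* (0.015), *Itga9* (−0.022), *Itgam* (0.17), *Itgb7* (0.16), *Vcl* (0.029), *Ilk* (0.028), and *Zyx* (0.095). With each sample left out, the logFC ranges that crossed 0 were −0.16 to 0.025 for *Itga2*, −0.12 to 0.055 for *Itga6*, −0.37 to 0.21 for *Itga7*, −0.067 to 0.074 for *Itga9*, −0.070 to 0.023 for *Itgb1*, −0.13 to 0.064 for *Itgb3*, −0.17 to 0.078 for *Itgam*, −0.11 to 0.18 for *Itgb2*, −0.045 to 0.087 for *Tln1*, −0.076 to 0.016 for *Vcl*, −0.12 to 0.022 for *Zyx*, and −0.074 to 0.17 for *Fermt3*. The causes were not tested.

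The labels do not say whether same-numbered samples are paired. The correlations of their deviations from the group means across genes were −0.44, −0.31, and −0.014. Pairs with unlike numbers ranged from −0.44 to 0.46, so these correlations cannot decide it. The block, on replicates 1 to 3, moved the count of the 34 at an unadjusted *P* under 0.05 from 3 to 4. *Itgb6* and *Itgae*, which stayed under 1 CPM in every sample, were removed by the filter.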
